A study of Mus musculus with 4 samples.

Results

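The genes described here are 8 members of the Ly6 and Gml cluster on mouse chromosome 15: Lypd2, Ly6d, Ly6k, Gml, Hemt1, Ly6e, Ly6a and Ly6c1, in chromosomal order. They were taken by gene name from the authors' deposited table of 23234 genes, after earlier results of the same table had shown large differences for Ly6e, Gml and Hemt1 in the knockdown, so the knockdown values of these 3 describe the choice and carry no test. The cells were extensively self-renewing erythroblasts of fetal mouse origin, a culture of red cell precursors that divides for a long time without maturing. All cells carried a short hairpin RNA, either a non-targeting one or one against Setd8, which encodes the methyltransferase for monomethylation of lysine 20 on histone H4. The 3 libraries used were a proliferating control, a proliferating Setd8 knockdown and a maturing control kept for 6 h in maturation medium, with 1 library in each group. The maturing Setd8 knockdown was not analysed here. The labels give no more on the cultures, such as whether a library came from 1 clone or a pool. The labels spell the knockdown sample's title like a control's, so its column was tied to it by the target and the number in the name. With 1 library per group no difference below has a replicate check, and in such bulk RNA fewer cells expressing a gene and less RNA per cell cannot be told apart.

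Genes of the Ly6 family encode small proteins, most of them tethered to the outer cell surface by a glycosylphosphatidylinositol (GPI) lipid anchor, with a compact fold held together by disulfide bonds between cysteines. Several are familiar surface markers of blood cells, and some are induced by interferon. Ly6a is the stem cell antigen Sca-1, Ly6c1 encodes a Ly6C antigen of monocytes and other leukocytes, and Ly6d marks progenitors on the way to B cells. Ly6e is a widely expressed, interferon-inducible member, and Gml and Hemt1 (hematopoietic cell transcript 1, named Gml2 in RefSeq) are a pair of similar neighbours.

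RNA from the cluster came almost wholly from 3 genes. Levels are in FPKM, which divides a gene's fragments by its transcript length and by the size of the library. Ly6e, Hemt1 and Gml were above 5 FPKM in both control libraries, and no member reached 1 FPKM in the knockdown. Summed over the 8 members, the level was 107.7 FPKM in proliferating control cells, 0.0432 FPKM in Setd8 knockdown cells and 89.9 FPKM in maturing control cells. Ly6e made up 71.1% of the sum in the proliferating control and 79.3% in the maturing control. The members listed at 0 numbered 4 in the proliferating control, 6 in the knockdown and 2 in the maturing control.

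**Figure D1:**
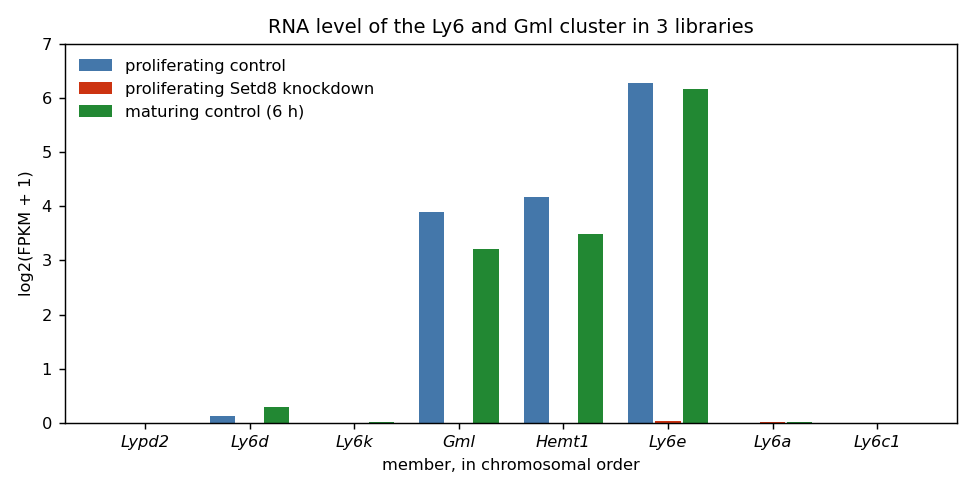
Level of each of the 8 members in the 3 libraries as log2(FPKM + 1), in chromosomal order, 1 bar per library with no error because each group has 1 library. Ly6e, Hemt1 and Gml stand high in both control libraries, and no bar of the knockdown rises visibly above 0.

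Ly6e lies on chromosome 15 from 74785480 to 74790335 (mm9). It was at 76.6 FPKM in proliferating control cells, 0.0297 FPKM in Setd8 knockdown cells and 71.2 FPKM in maturing control cells. The level was thus close to equal in the control libraries and 0.0388% of the proliferating control in the knockdown. In the proliferating control Ly6e ranked 317 among 23234 genes by FPKM, in the maturing control 332, and in the knockdown 12365. On the log2 scale of FPKM + 1, which shrinks differences of low genes, the knockdown differed from the proliferating control by -6.24, the lowest value among 4999 genes at 5 FPKM or more in that control. The authors' deposited table gave Ly6e a log2 ratio of -11.33, with a standard error of 0.76 from the authors' model and a q listed as 0. In GENCODE M21 (GRCm38) the transcript used, the one with the longest coding part among those in the CCDS set, lies on the plus strand (chromosome 15, 74955071 to 74959905 in GRCm38), has 4 exons and 2281 bases, and shares no stretch of 50 bases with a transcript of another gene. With stretches of 36 bases it shared 0.445% of them, all with the pseudogene Ly6e-ps1. Bases 61 to 360 of its coding sequence of 408 bases are shown because this gene carries most of the cluster's RNA, and capitals mark the 10 in-frame cysteine codons, the residues that the Ly6 fold is built on.
Ly6e: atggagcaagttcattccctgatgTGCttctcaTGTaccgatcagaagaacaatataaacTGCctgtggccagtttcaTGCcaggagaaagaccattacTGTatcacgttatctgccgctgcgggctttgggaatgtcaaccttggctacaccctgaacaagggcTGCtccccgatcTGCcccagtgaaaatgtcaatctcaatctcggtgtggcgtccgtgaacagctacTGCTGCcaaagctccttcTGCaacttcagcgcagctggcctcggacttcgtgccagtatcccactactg

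Gml and Hemt1 had like values in each library. Gml (chromosome 15, 74643884 to 74649245) was at 13.9 FPKM in proliferating control cells, listed at 0 in Setd8 knockdown cells and at 8.21 FPKM in maturing control cells. Hemt1 (chromosome 15, 74649505 to 74654866) was at 17.1 FPKM in the proliferating control, listed at 0 in the knockdown and at 10.2 FPKM in the maturing control. Both were thus present in the control libraries and listed at 0 in the knockdown. The authors' deposited table called both lower in the knockdown, with a q of 0.000875 for Gml and 0.000845 for Hemt1, and gave no finite ratio because of the 0. The ratio of Gml to Hemt1 was 0.812 in the proliferating control and 0.806 in the maturing control. Their rows lie 260 bases apart and have the same span of 5361 bases in the deposited table.

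The pair is also alike in sequence, which bears on how fragments are assigned. The coding sequences in GENCODE M21 are both 528 bases long, and the alignment had 460 identical positions, 66 mismatches and 4 gap positions, an identity of 86.8%. No other pair of members went above 66.4%, which was Ly6a with Ly6c1. Of the stretches of 50 bases in the Gml transcript, 18.6% also occur in Hemt1, and 25% of those in Hemt1 occur in Gml. With 36 bases these shares were 22.2% and 29.2%, and with 75 bases 13.5% and 19.1%. The length of the reads is not given in the sources used here, so the separate levels of the pair are uncertain. Bases 101 to 400 of each coding sequence are shown because they hold most of the positions where the pair can be told apart, and capitals mark the bases that differ between them or have no partner in the alignment.
Gml: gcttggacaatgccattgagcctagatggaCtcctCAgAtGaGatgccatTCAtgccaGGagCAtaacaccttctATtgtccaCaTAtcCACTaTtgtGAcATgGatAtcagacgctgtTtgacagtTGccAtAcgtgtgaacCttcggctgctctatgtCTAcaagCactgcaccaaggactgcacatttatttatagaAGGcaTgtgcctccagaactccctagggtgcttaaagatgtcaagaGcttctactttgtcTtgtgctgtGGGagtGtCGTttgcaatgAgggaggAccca
Hemt1: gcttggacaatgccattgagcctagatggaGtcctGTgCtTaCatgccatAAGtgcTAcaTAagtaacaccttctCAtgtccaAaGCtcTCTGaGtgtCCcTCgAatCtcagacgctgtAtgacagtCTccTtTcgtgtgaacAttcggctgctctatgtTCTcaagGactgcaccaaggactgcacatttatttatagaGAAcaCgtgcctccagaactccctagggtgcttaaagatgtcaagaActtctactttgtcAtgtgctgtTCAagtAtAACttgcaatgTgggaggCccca
Counted from the start codon, the first base that differs is base 131 and the last is base 504 in each, and 54 of the 300 bases shown are in capitals.

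The remaining 5 members were at or near 0. Ly6d (chromosome 15, 74592485 to 74593997) was at 0.0941 FPKM in the proliferating control, listed at 0 in the knockdown and at 0.226 FPKM in the maturing control. The deposited p-values of genes at 0 in one library take fixed steps that count whole fragments in the other, and they place Ly6d at 4 fragments in the proliferating control, with an exact 95% Poisson interval of 1.09 to 10.2 fragments for counting error only. The maturing control held about 14.8 fragments. The knockdown held 0 fragments, which allows up to 3 fragments (0.0492 FPKM), and the exact two-sided 95% Poisson interval of that 0 reaches 3.69 fragments. At the level of the proliferating control, itself read from 4 fragments, the knockdown would hold about 5.73 fragments. With counts this low, a difference of the knockdown from the proliferating control stays unsettled for Ly6d. The authors' model gave it an unadjusted p of 0.0115 there, and it was not called (q of 0.128). Against the maturing control Ly6d was called lower (q of 0.0236), both in the authors' deposited table.

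The stem cell antigen gene Ly6a (chromosome 15, 74825306 to 74828318) was listed at 0 in the proliferating control and had 1 fragment in each of the other 2 libraries, 0.0135 FPKM for the knockdown and 0.0125 FPKM for the maturing control. Ly6k, a gene known from the testis (74627303 to 74630398), had 1 fragment in the maturing control, 0.0137 FPKM, and was listed at 0 in the others. Lypd2 (74562681 to 74564743) and Ly6c1 (74874447 to 74879267) were listed at 0 in all 3 libraries. These 4 members were not tested in the authors' deposited table. Their direction cannot be read at this depth.

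For the knockdown against the proliferating control, 3 of the 8 members (Gml, Hemt1 and Ly6e) carried a call of lower in the authors' deposited table and none of higher, with 4 members tested. Over all tested genes 3.24% were called lower and 5.81% higher, and since the members were chosen on this contrast nothing is read from their share. For the knockdown against the maturing control the table called 4 members lower, Ly6d being the added one, against 4.38% of all tested genes called lower and 7.22% higher. The 2 comparisons share the knockdown library. On the log2 scale of FPKM + 1, the knockdown minus maturing control difference was -6.13 for Ly6e, -3.48 for Hemt1 and -3.20 for Gml. Against the proliferating control the same differences were -6.24, -4.18 and -3.90. Cell type markers differed between the libraries too. All 11 erythroid markers had RNA in every library, with a summed level of 1940 FPKM in proliferating control cells, 841 FPKM in Setd8 knockdown cells and 3065 FPKM in maturing control cells. Their median was 40.3, 34.1 and 51.9 FPKM in the same order, and the highest marker alone was at 843, 279.6 and 1747 FPKM. The lowest was at 0.792, 0.0900 and 2.34 FPKM, and 10, 9 and 11 of the 11 were at 1 FPKM or more. The 10 mast cell and basophil markers summed to 71.0, 501 and 38.1 FPKM, and the number at 1 FPKM or more was 5, 9 and 4. The 8 granulocyte and monocyte markers summed to 4.77, 11.8 and 5.03 FPKM, with 1, 1 and 2 at 1 FPKM or more and with Elane and Lyz2 at 0 in all 3 libraries. The 4 megakaryocyte markers summed to 3.13, 9.93 and 2.97 FPKM, with Ppbp at 0 in all 3. The part of these cell types in the low cluster values of the knockdown was not tested.

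The second question was whether 6 h in maturation medium changed the cluster in control cells. None of the 4 tested members was called in either direction, where 1.17% of all tested genes were called lower and 0.584% higher. The 4 also had no unadjusted p below 0.05, the lowest being 0.115 for Ly6d. For Ly6e the authors' deposited table gave a log2 ratio of -0.10, with a 95% interval from the authors' model of -0.91 to 0.70. Gml had a log2 ratio of -0.76 (interval -1.80 to 0.28) and Hemt1 one of -0.75 (interval -1.79 to 0.29), which is 59.0% and 59.5% of the level in the proliferating control. For Ly6d the log2 ratio was 1.26, with an interval of -0.31 to 2.83. These intervals leave room for a change of over 1 on the log2 scale for Gml, Hemt1 and Ly6d, and they come from a model without replicates. Among the 4999 genes at 5 FPKM or more in the proliferating control, 35.8% had a lower maturing minus proliferating difference than Ly6e, against 3.44% for Gml and 3.42% for Hemt1. Ly6e thus sat in the bulk of genes, and the Gml pair in the lower tail.

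Neighbouring rows were low in the knockdown too. Since 1 library stands for the knockdown, what goes with the loss of Setd8 and what goes with that library or its culture cannot be told apart, for the members as for their neighbours. Within 500 kb on either side of the cluster the table has 26 rows, the 8 members included. Of these, 8 were tested in the knockdown against the proliferating control, and the authors' deposited table called 7 of them lower and none higher, where 3.24% of all tested genes were called lower. The window was drawn around members chosen on this contrast, and nothing is read from its share. The 4 that are not members were Jrk, 4930572J05Rik, Cyp11b1 and Cyp11b2. The gene 4930572J05Rik (Them6 in RefSeq, a member of a thioesterase family) was at 7.83 FPKM in proliferating control cells, 0.00716 FPKM in Setd8 knockdown cells and 11.0 FPKM in maturing control cells, with a q of 8.86e-09. It lies 89.1 kb from the nearest of the members that were above 5 FPKM, on the side away from Ly6e. Jrk was at 0.436, 0 and 0.445 FPKM in the same order of libraries. Cyp11b1 and Cyp11b2, enzymes of adrenal steroid synthesis, were at 0.131 and 0.0915 FPKM in the proliferating control, at 0.0438 and 0.0246 FPKM in the maturing control and listed at 0 in the knockdown. All 4 were thus nearly or fully without RNA in the knockdown while both control libraries held some. For Cyp11b1 and Cyp11b2 the control levels were themselves near the floor, at 0.131 FPKM or less, and whether they share fragments was not examined. Jrk shares its coordinates with the row 4933427E11Rik, at 0.0230, 0 and 0.0149 FPKM, so their reads may not be separable. Of the other rows between the outermost members, Lynx1, a modulator of nicotinic receptors, was at 0.0541, 0 and 0.0843 FPKM, and Ly6i was at 0, 0 and 0.0104 FPKM. The row 2010109I03Rik was at 0.00622, 0.00433 and 0.00803 FPKM, and 2300005B03Rik (Slurp2 in RefSeq) and D730001G18Rik were listed at 0 in all 3.

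Chosen after these values were seen, the stretch from Jrk to Ly6e spans 257 kb (chromosome 15, 74532841 to 74790335) and 17 rows. Above 0.05 FPKM were 9 of the 17 rows in the proliferating control, 7 in the maturing control and none in the knockdown. Summed over the stretch, the level was 116 FPKM in proliferating control cells, 0.0685 FPKM in Setd8 knockdown cells and 102 FPKM in maturing control cells. The highest row of the knockdown was Ly6e itself. The rows above 0 there were 4930572J05Rik, Slurp1, 2010109I03Rik (Ly6m in RefSeq) and Ly6e, 4 in all. Slurp1, which lies before the first member, was at 0, 0.0273 and 0.0251 FPKM. On either side the nearest rows that reached 1 FPKM in a library are far off, so the table shows no edge of the stretch. Toward lower coordinates this was Ptp4a3, a phosphatase gene 944 kb away, at 23.3 FPKM in proliferating control cells, 9.47 FPKM in Setd8 knockdown cells and 18.5 FPKM in maturing control cells. The authors' deposited table marks both comparisons of Ptp4a3 with the maturing control as FAIL, so no difference is read from them. Toward higher coordinates the nearest such row was Zfp41, a zinc finger gene 657 kb from Ly6e, at 0.233, 2.20 and 0.351 FPKM. Both had RNA in the knockdown, with Ptp4a3 called lower (q of 0.0286) and Zfp41 called higher (q of 1.78e-06) in the authors' deposited table. Next to it, Top1mt, a mitochondrial topoisomerase gene 697 kb from Ly6e, was at 0.559, 1.48 and 0.428 FPKM and was not called. At 795 kb, Zc3h3 was at 1.90, 2.06 and 2.36 FPKM and was not called.

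**Figure D2:**
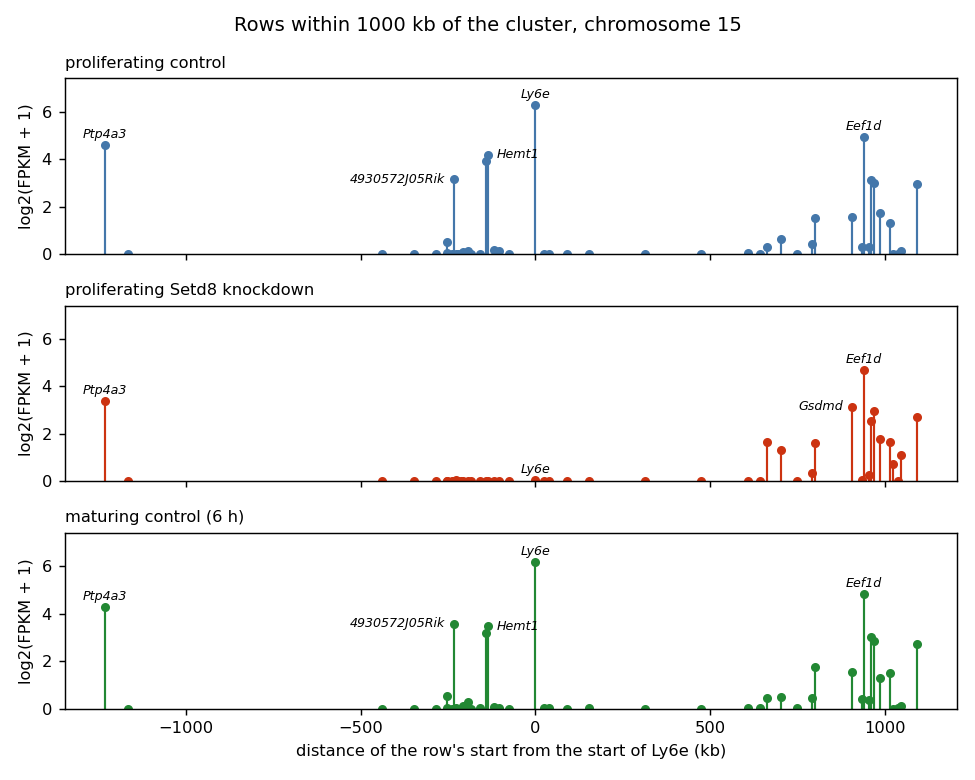
Level of the 47 rows within 1000 kb of the cluster as log2(FPKM + 1), against the distance in kb from the start of Ly6e to the start of the row, with 1 panel per library and 1 stem per row. The stems near 0 kb are present in both control libraries and missing in the knockdown, while Ptp4a3 on the left and Eef1d on the right have RNA in all 3.

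Such near-complete losses were few among well-expressed genes. Of the 4999 genes at 5 FPKM or more in the proliferating control, 20 were below 0.05 FPKM in the knockdown, which is 0.4%. Of the 20, 5 were short RNAs of the Mir and Snord type, and 15 were other genes. The stretch held 4 of the 15: 4930572J05Rik, Gml, Hemt1 and Ly6e. Among the other 11, only Slc28a2 and Gm14085 on chromosome 2 had another of the 15 within 500 kb, at a distance of 23.8 kb. The stretch and the limit of 0.05 FPKM were chosen after these values were seen. Nothing is therefore read from the stretch's part of the 15. In the maturing control 8 of the 4999 genes were below 0.05 FPKM, and all 8 were short RNAs.

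By a distance in the plane of the knockdown and maturing log2 ratios of FPKM + 1, each against the proliferating control, the genes most like Ly6e among 4998 were S100a10 (1.77), Hemt1 (2.14), Gml (2.41), Cox6b2 (2.42), Phgdh (2.78) and Parvb (2.83). The measure rests on 3 libraries, and both ratios share the proliferating control. Ly6e, Hemt1 and Gml were chosen on the knockdown ratio, so nothing is read from their nearness. For genes near 0 in the knockdown, that ratio mostly follows the level in the proliferating control. S100a10, a partner of annexin A2, was at 25.5, 0.138 and 16.2 FPKM in the proliferating control, the knockdown and the maturing control. Parvb lies on chromosome 15 too, but 9272 kb from Ly6e, at 9.74, 0.00462 and 11.1 FPKM in the same order.

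**Figure D3:**
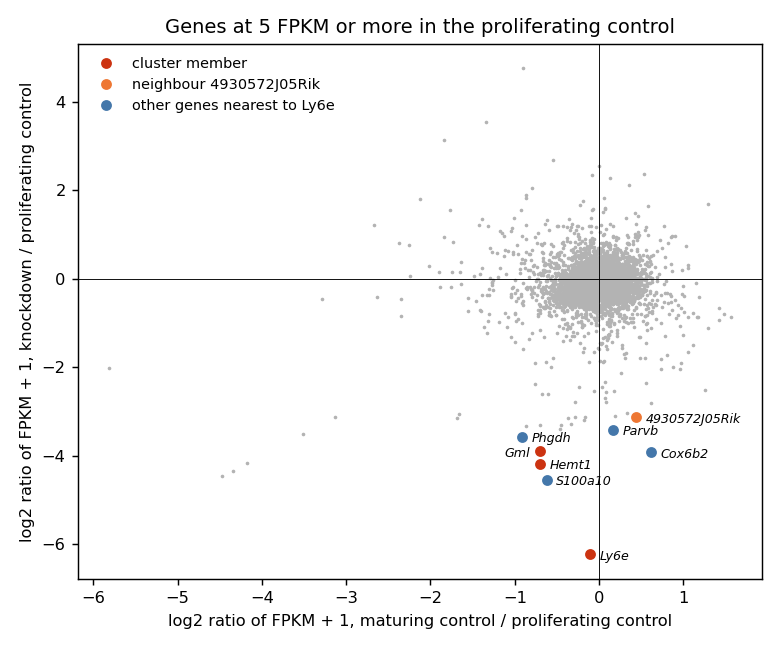
Each point is 1 of the 4999 genes at 5 FPKM or more in the proliferating control, with the log2 ratio of FPKM + 1 for the maturing control on the x axis and for the knockdown on the y axis. Ly6e lies lowest at -6.24 and close to 0 on the x axis, and Gml and Hemt1 lie close together, at -3.90 and -4.18 on the y axis and both at -0.70 on the x axis.

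Ly6 and urokinase receptor (uPAR) genes outside the 8 members gave few values. Of 30 listed genes 28 matched a row, and 2 of them, Cd59a and Cd59b, reached 1 FPKM in a library. These encode the inhibitor of the complement membrane attack complex, which protects red cells, and both lie on chromosome 2. Cd59a was at 2.48 FPKM in proliferating control cells, 0.255 FPKM in Setd8 knockdown cells and 1.99 FPKM in maturing control cells. Cd59b was at 1.15, 0.102 and 0.939 FPKM. Both were low in the knockdown and near each other in the control libraries, though they are similar copies whose fragments may be split uncertainly. Of the 28 genes 4 were tested in the authors' deposited table for the knockdown, and 3 of the 4 were called lower and none higher, where 3.24% of all tested genes were called lower and 5.81% higher, the remaining one being Ly6g6d, at 0.272 FPKM in the proliferating control and listed at 0 in the knockdown. None of the 4 tested in the maturing control was called, where 1.17% of all tested genes were called lower and 0.584% higher. The median log2 ratio of the 2 measured genes was -1.22 in the knockdown and -0.18 in the maturing control, beside -0.05 and 0.01 over 9611 measured genes. Over the whole list without a level filter the knockdown median was 0, because most of these genes were listed at 0 in both libraries compared.

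Genes that make and attach the GPI anchor were called nowhere, with 26 tested in each comparison. Over all tested genes 3.24% were called lower and 5.81% higher in the knockdown against the proliferating control. These shares were 1.17% and 0.584% in the maturing control, and 4.38% and 7.22% in the knockdown against the maturing control. With shares this small, the lack of a call among 26 genes is not read as a result. Of 28 genes 26 reached 1 FPKM, and the median log2 ratio was -0.01 in the knockdown, with 13 of 26 below 0, and 0.07 in the maturing control, with 7 of 26 below 0. The median over all measured genes was -0.05 and 0.01. With other scalings, or with the mean, the knockdown value was above 0. Pigt, a subunit of the transamidase that attaches proteins to the anchor, was at 38.9, 30.9 and 44.0 FPKM in the proliferating control, the knockdown and the maturing control. Dpm3, of the enzyme that makes the mannose donor, was at 27.6, 43.7 and 27.3 FPKM, and Pigq, of the enzyme for the first sugar, at 12.8, 16.3 and 23.9 FPKM. RNA for the anchor pathway was thus present in all 3 libraries.

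Other GPI-anchored surface proteins went both ways. Of 21 genes 7 reached 1 FPKM, with a median of 0.34 in the knockdown and 0.18 in the maturing control. Of the 21, 10 were tested in the authors' deposited table for the knockdown, and the 1 gene called lower was Art4, which carries the Dombrock blood group antigen, at 5.21 FPKM in proliferating control cells, 0.555 FPKM in Setd8 knockdown cells and 10.4 FPKM in maturing control cells. The table called 4 of the 10 higher, beside 3.24% of all tested genes called lower and 5.81% higher. Of these, Cd52 was at 0.628 and 2.87 FPKM and the ephrin gene Efna4 at 0.00819 and 0.926 FPKM. The semaphorin Sema7a, at 0.197 FPKM, and the folate receptor Folr1, at 0.336 FPKM, stayed low even in the knockdown. In the maturing control the acetylcholinesterase gene Ache was the 1 gene of 9 tested that was called, higher, at 0.0550 and 0.542 FPKM. Over all genes tested there 1.17% were called lower and 0.584% higher. Abundant members were not called: Cd24a was at 616, 478 and 526 FPKM and the prion protein gene Prnp at 82.5, 98.4 and 173 FPKM in the proliferating control, the knockdown and the maturing control.

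Interferon-stimulated genes, listed because Ly6e, Ly6a and the Ly6C genes respond to interferon in other settings, were mostly below 1 FPKM. In at least 1 library 6 of 24 reached it, with a median of 0.02 in the knockdown and 0.15 in the maturing control. Of 14 tested for the knockdown, the authors' deposited table called 1 lower, the RNA sensor gene Ifih1, at 0.735 and 0.105 FPKM, and 2 higher. The 2 were Oas1a, at 0.0696 and 0.440 FPKM, and Oasl1, at 0.0976 and 0.608 FPKM. Over all genes tested for the knockdown 3.24% were called lower and 5.81% higher. None of 15 tested was called in the maturing control, where 1.17% of all tested genes were called lower and 0.584% higher. With shares this small, nothing is read from the few calls in these lists. Bst2 was at 10.5, 10.7 and 8.76 FPKM and Irf9 at 5.11, 5.06 and 5.10 FPKM in the proliferating control, the knockdown and the maturing control. Of 12 interferon receptor and signalling genes 10 reached 1 FPKM, with a median of 0.18 in the knockdown and 0.09 in the maturing control. In the knockdown none of 10 tested was called. In the maturing control Socs3, a feedback inhibitor of cytokine signalling, was called higher as 1 of 11 tested, at 0.0286 and 0.183 FPKM.

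Against the maturing control, which shares the knockdown library with the comparison above, Cd59a, Cd59b, Art4, Ifih1, Sema7a, Efna4, Oas1a and Oasl1 again had a call in the same direction in the authors' deposited table. Cd52 and Folr1, called higher against the proliferating control, were tested here but not called (q of 0.668 and 0.283). Ly6g6d, called lower there, was not tested here. Calls that the proliferating control did not give were lower ones for Ache, Ifit2 and Isg15 and higher ones for Cd55 and Ifngr1. Tested were 3 of the other Ly6 and uPAR genes, 10 of the other GPI-anchored proteins, 11 interferon-stimulated genes and 8 interferon receptor and signalling genes, and over all tested genes 4.38% were called lower and 7.22% higher. Cd55, which like Cd59 shields cells from complement, was at 27.7 FPKM in Setd8 knockdown cells and 10.0 FPKM in maturing control cells (q of 0.00911). The interferon gamma receptor gene Ifngr1 was at 2.12 and 0.589 FPKM (q of 0.0121). The interferon-stimulated Isg15 was at 0.0261 and 0.472 FPKM and Ifit2 at 0.0568 and 0.283 FPKM, all below 1 FPKM. No anchor synthesis gene was called.

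**Figure D4:**
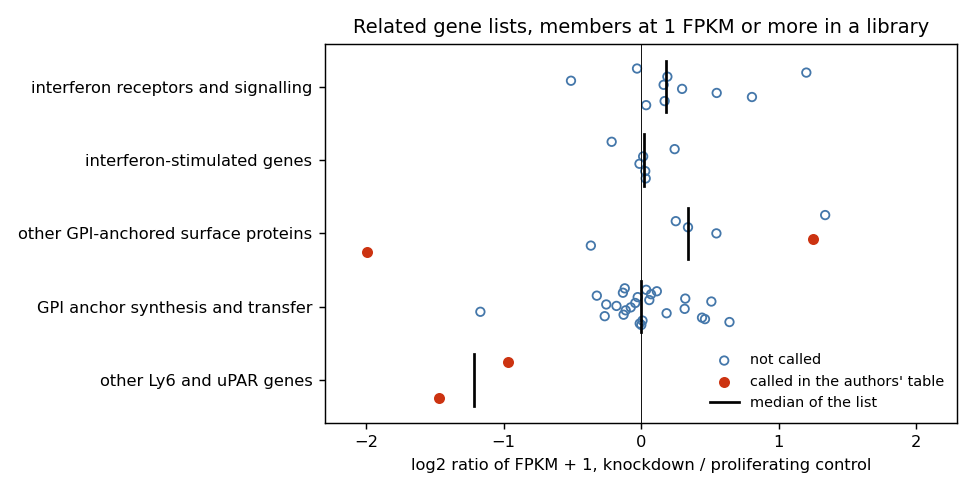
Knockdown minus proliferating control log2 ratio of FPKM + 1 for the members of 5 related lists that reached 1 FPKM in a library, 1 point per gene, filled where the authors' deposited table called it, with a line at the list's median. The 2 points of the other Ly6 and uPAR genes are Cd59a and Cd59b, and the anchor genes centre on 0.

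Checks of the whole series concern the labels and the cells. Setd8 was at 25.1 FPKM in proliferating control cells, 9.28 FPKM in Setd8 knockdown cells and 25.9 FPKM in maturing control cells in the authors' deposited table (37.0% of the proliferating control, called lower with a q of 0.0122). For Gata2, which encodes a transcription factor of progenitors and mast cells, the levels were 54.9, 129 and 29.6 FPKM, and the gene was called higher in the knockdown in the authors' deposited table. The steps of single fragments put the knockdown library 1.43 times and the maturing control library 1.54 times as deep as the proliferating control. Absolute depth is unknown. Of the 6 fibroblast and endothelial markers none reached 1 FPKM, and Cdh5 was at 0 in all 3 libraries. For 6 lymphocyte markers the summed level was 2.31, 0.185 and 1.55 FPKM. Most of each sum was the highest marker alone, at 2.29, 0.150 and 1.51 FPKM, and 3 of the 6 were at 0 in each library.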

How the data were processed

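RNA isolation and library preparation used kits, per the labels' protocols. The submitters' processing notes list FastQC 0.10.1, Cufflinks 2.0.2, Cuffdiff and the mm9 build. For the aligner and the annotation the name is not given in the sources used here. Results were deposited as 1 table with the columns of a Cuffdiff comparison, per the file headers. It holds the authors' FPKM per library and the log2 ratio, statistic, p-value and q-value of the authors' model for 3 comparisons. Its 65535 rows cover 23234 genes in 2 comparisons and 19067 in the knockdown against the maturing control. Libraries were matched to samples by name. The authors' calls coincided with a deposited q-value of at most 0.05 in every row.

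No test was run, because each group had 1 library. The size of a difference is the log2 of the ratio between FPKM + 1 values. Standard errors are the deposited log2 ratio over the deposited statistic, and 95% intervals follow from them. For genes at 0 in one library the deposited p-values fell on steps read as 1, 2, 3 and 4 fragments in the other. FPKM per fragment of 258 genes (both control libraries) and of 538 genes (knockdown and maturing control) then gave a depth ratio that held within 5% for 100% of genes. Neighbouring rows were gathered within 500 kb of the cluster. Of 115 entries in 5 related lists 113 matched a row, some through RefSeq synonyms (GRCm38.p6), used for names only. Genes at 1 FPKM or more in a library count as measured. Sequences came from GENCODE M21 (GRCm38) and were aligned with Biopython 1.88. Genomic positions are those of the deposited table, in mm9, unless GRCm38 is named. Of the 8 members Ly6c1 alone matched a RefSeq promoter, and it had no RNA, so no promoter is shown.

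The members, lists and rules were chosen with earlier results of these data known. Named genes are the members, the rows between them, called rows nearby, up to 6 called and 4 abundant uncalled genes of each list, Setd8, Gata2, and the 6 genes nearest to Ly6e. The stretch from Jrk to Ly6e, the flanking genes and the limit of 0.05 FPKM were chosen after values were seen. Alternatives were a q under 0.01, a minimum log2 size of 1, filters at 1 and 5 FPKM, pseudocounts of 0.1 and 5, other scalings, and a window of 1000 kb or none. Scripts were tested on simulated data and used Python 3.11.15, numpy 2.4.6, pandas 2.3.3, scipy 1.17.1 and matplotlib 3.10.9.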

Additional observations from a re-analysis of the deposited data

How the results depend on the processing

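Of 337 alternative values for 65 results, 283 stayed within the limits used here, 54 moved and 0 reversed. For ratios the limit was the standard error of the authors' model, or its median of 0.449, and for counts 1.5 times. A change of sign within the limit counted as having stayed. Many values could not move, such as the ratios of Lypd2 and Ly6c1, listed at 0 in every library. Counts of 0 could not rise under stricter settings either. The tally is therefore not read as a measure of stability. The count of members called lower in the knockdown stayed at 3 of 8 under a q under 0.01, a size of 1 and filters at 1 and 5 FPKM, and no member was called in the maturing control under any of them. Since the 3 were chosen on this contrast, the size limit and the filters could not remove them. Stricter settings also cannot add a call in the maturing control, so neither count is read as a check. The median log2 ratio of Ly6e, Hemt1 and Gml in the knockdown was -4.18, and it was -7.43 with a pseudocount of 0.1, -2.15 with one of 5 and -6.62 as TPM, where values grow against the pseudocount. Against the maturing control it was -3.48, and -6.69, -1.60 and -5.87 under the same settings. For the other Ly6 and uPAR genes the knockdown median of -1.22 became -2.75, -0.39 and -2.41 under these settings and 0 with no filter.

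Of 7 rows near the cluster called lower in the knockdown, 4 were left with a size of 1 or a filter at 1 or 5 FPKM. In a window of 1000 kb, 4 rows were called higher against the proliferating control and 3 against the maturing control, where none was before. Of the 4, Zfp41 has no entry in the comparison with the maturing control. Top1mt and Zc3h3 have none either, so these counts do not cover the same rows. Lower calls of other Ly6 and uPAR genes went from 3 to 1 with a size of 1 and to 0 at 5 FPKM. Higher calls of other GPI-anchored proteins in the knockdown went from 4 to 1 with a size of 1 or at 1 FPKM, and to 0 at 5 FPKM. The 1 lower and 2 higher interferon-stimulated genes in the knockdown, and Ache and Socs3 in the maturing control, each went to 0 with a size of 1 or a filter at 1 or 5 FPKM. Genes below 1 FPKM in every library cannot reach a size of 1 on FPKM + 1, nor pass these filters. Their low levels thus fixed these drops in advance, as they did for Jrk, Cyp11b1, Cyp11b2, Ly6g6d, Sema7a, Folr1 and Efna4. The scaling to an equal upper quartile multiplied knockdown levels, relative to the proliferating control, by a factor worth 0.11 on the log2 scale, the one scaling factor over 0.1, and left the knockdown ratio of Ly6e at -6.23. Of 78 alternative list medians 7 changed sign, none of them beyond 0.0947 in size. No paired analysis was possible because each group has 1 library. No replicate could be left out for the same reason. An FPKM limit for a value listed at 0 was computed for Ly6d alone, where 3 fragments in the knockdown would be 0.0492 FPKM.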
